A study of Mus musculus with 6 samples.

Results

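The proteasome genes of mouse embryonic stem cells were compared between cells without Max and wild-type cells. The set comprised every protein-coding gene whose GENCODE M21 symbol is Psm followed by a letter from a to g and a number, leaving out the paralog Psma8 and the unrelated Psmc3ip. That rule found 47 genes among the 22028 protein-coding genes and 56689 identifiers listed. By role they were 7 alpha ring subunits, 7 constitutive beta ring subunits, 3 immunoproteasome beta subunits, 1 thymoproteasome beta subunit, 6 ATPases and 3 other subunits of the base, 8 lid subunits, 7 assembly chaperones, and 5 activators and inhibitors. Gene names decide membership, but the set was selected on the Max-KO against WT differences of these same libraries, since it was proposed with them in view. Counts of members called in that comparison are therefore a description and not a test of the set.

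RNA was sequenced from 3 libraries of Max-KO cells (genotype Max-/-) and 3 libraries of wild-type (WT) cells, all embryonic stem cells of strain C57BL/6, which are pluripotent cells derived from the early embryo. Max is the partner with which MYC proteins bind DNA. The labels give neither how Max was disrupted, nor how many clones were used, nor the culture medium, and they do not say that libraries of a group came from separate cultures. The p-values therefore measure the spread between these libraries, which may be technical.

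The proteasome is the cell's main protease for ubiquitin-tagged proteins. Its 20S core is a barrel of outer alpha rings, which gate the entrance, and inner beta rings, which hold the proteolytic sites in Psmb5, Psmb6 and Psmb7. The 19S particle caps the barrel, with a base whose ATPases unfold substrates and a lid that removes ubiquitin. After interferon gamma, and constitutively in many immune cells, the proteolytic subunits are replaced in newly built cores by the immunoproteasome subunits Psmb8, Psmb9 and Psmb10, which changes the peptides made for MHC class I molecules. Activators of the PA28 family, encoded by Psme1 to Psme3, and PA200, encoded by Psme4, can cap the core in place of the 19S particle.

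Values were deposited as FPKM, which divide fragment counts by transcript length and library size, so levels of different genes are comparable per length. Summed FPKM was 645169 to 658361 in Max-KO libraries and 743406 to 774405 in WT libraries. From the steps between low values, depth was estimated at 20.8 to 28.2 M fragments in Max-KO libraries and 22.2 to 25.2 M in WT libraries. Max was listed at 35.8, 39.6 and 43.4 FPKM in Max-KO libraries and at 41.6, 50.2 and 42.3 FPKM in WT libraries, so its gene-level value overlapped between groups and does not check the genotype. The summed level of 8 embryonic stem cell markers was 6604 to 7107 FPKM in Max-KO libraries and 4734 to 5372 FPKM in WT libraries. Within that sum Dppa5a alone averaged 4020 FPKM in Max-KO and 2510 FPKM in WT. Utf1 went the other way, averaging 148.9 FPKM in Max-KO and 264.6 FPKM in WT. By the calls defined below, 5 of the 8 were higher, 1 lower and 2 not called, against 43.0% higher and 23.2% lower of all genes tested. WT replicate 3 stood apart for the proteasome: it was the highest WT library for 38 of the 46 members tested, against 36.8% of all genes tested. For members whose call changed without it, those values are given.

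The 14661 genes whose group mean reached 1 FPKM in Max-KO or in WT were tested together with limma on log2(FPKM + 1). Calls were made at an adjusted p (Benjamini-Hochberg) under 0.05, and log2 differences are Max-KO less WT. Of all genes tested, 23.2% were called lower in Max-KO and 43.0% higher, 66.2% in all, and the median log2 difference was 0.21. Of the 47 members 46 were tested, and 27 were lower, 0 higher and 19 not called, with a median log2 difference of −0.25, or −0.46 relative to the median of all genes. After rescaling each library to TPM, 18 were lower and 12 higher, against 16.1% and 53.8% of all genes tested. At an unadjusted p under 0.05 limma had 1 member higher, Psmd2, and limma without trend and robust had 0. All 27 had 3 Max-KO values below the 3 WT values. In all, 29 members were lower without overlap and 3 higher, against 25.7% and 46.3% of all genes tested. Psmb8 and Psmb9, which are among the 27, reached a mean of 1 FPKM only in WT, so the filter set their direction. In bulk RNA, fewer cells of a type and less RNA per cell cannot be told apart.

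**Figure D1:**
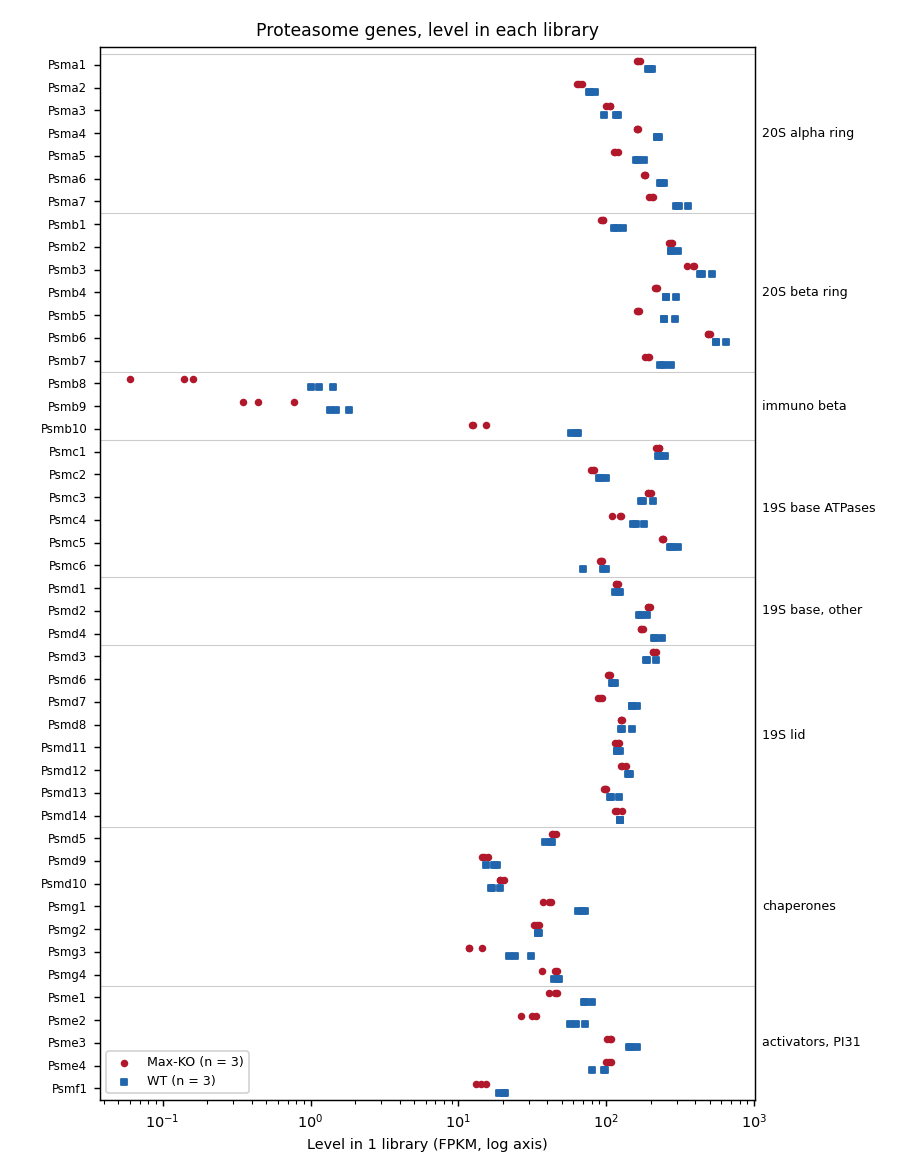
Level of each proteasome gene in each library (FPKM, log axis), by role, with 3 Max-KO libraries (circles) above 3 WT libraries (squares). Psmb6 is the highest in both groups, Psmb8 and Psmb9 lie below 2 FPKM in all libraries, and the Psmb10 points of the groups (12.3 to 15.5 FPKM in Max-KO, 58.2 to 64.8 FPKM in WT) are far apart.

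Most subunits of the complex were abundant transcripts. The highest was Psmb6, a proteolytic beta subunit, with a mean of 494.9 ± 8.85 FPKM in Max-KO and 580.9 ± 52.2 FPKM in WT (SD, n = 3 each), above 98.7% of tested genes in WT. Across the 31 genes of the 20S core and 19S particle, mean levels ran between 65.9 and 495 FPKM in Max-KO and between 79.6 and 581 FPKM in WT. The chaperones ranged lower, at 12.7 to 44.2 FPKM in Max-KO and 17.0 to 68.2 FPKM in WT. Psmb11, the thymoproteasome subunit normally made in cortical thymic epithelium, was listed at no more than 0.01 FPKM in any library and was not tested. Among the most abundant members the order moved with genotype: Psma7 ranked 8 of 47 in Max-KO and 3 in WT, Psmb5 ranked 14 and 7, and Psmd3 ranked 7 in Max-KO and 14 in WT.

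Of 14 core genes 12 fell and 0 rose, against 23.2% and 43.0% of all genes tested, with log2 differences between −0.66 and −0.06 and a median of −0.33. The core had 7 lower and 1 higher after rescaling to TPM, against 16.1% and 53.8% of all genes tested. With quantile normalization it had 8 lower and 2 higher, against 33.0% and 28.8%. In the alpha ring 6 of 7 fell, with a median of −0.38. In the constitutive beta ring 6 of 7 fell, with a median of −0.31. The summed level of the core genes was 2788 to 2816 FPKM in Max-KO libraries and 3399 to 3855 FPKM in WT libraries.

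Psma7, an alpha ring subunit, had the lowest log2 difference of its ring. Its level was 203, 194.5 and 209 FPKM in Max-KO 1 to 3, against 309.9, 296 and 359 FPKM in WT 1 to 3. The Max-KO libraries were all well below the WT libraries, by a log2 difference of −0.66 ± 0.08 (SE; limma adjusted p = 0.000324), or 37.1% in mean FPKM. Psma4 (27.2% lower), Psma5 (30.9%) and Psma6 (23.4%) fell by less, and Psma1 (16.7%) and Psma2 (17.2%) by less still, each without overlap. At the other end of the ring was Psma3, with 105.85, 106 and 99.7 FPKM in Max-KO, against 121, 117 and 97.35 FPKM in WT. For Psma3, WT replicate 3 was the lowest of the 6 libraries and the other WT libraries were the highest. Its log2 difference of −0.10 ± 0.09 was not called (limma adjusted p = 0.354), and without WT replicate 3 it was called at −0.19 (limma adjusted p = 0.013).

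The proteolytic beta subunits differed in size of change. Psmb5, which carries the chymotrypsin-like site, had 162, 165 and 168 FPKM in Max-KO, against 247, 246 and 291 FPKM in WT. Its groups were far apart, with a log2 difference of −0.66 ± 0.07 (limma adjusted p = 0.000241). Psmb7, which carries the trypsin-like site, had 194, 192 and 182 FPKM in Max-KO, against 245, 231 and 274 FPKM in WT. The Max-KO libraries were again all lower, by a log2 difference of −0.39 ± 0.07 (limma adjusted p = 0.00238). Psmb6, which carries the caspase-like site, had 505, 488 and 491 FPKM in Max-KO, against 549.9, 552 and 641 FPKM in WT. The groups did not overlap, but the Psmb6 difference of −0.23 ± 0.07 (limma adjusted p = 0.0258) was not stable. It lost its call when any Max-KO library was left out (limma adjusted p 0.0541 to 0.0805), and after quantile normalization it was called higher, at 0.17 (limma adjusted p = 0.0264).

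Of the structural beta subunits, Psmb1 was 22.3% lower in mean FPKM, Psmb3 18.7% and Psmb4 19.4%, and all of these were called. Psmb3 lost its call without Max-KO replicate 1 (log2 difference −0.25, limma adjusted p = 0.0603). Psmb2 had the highest log2 difference of its ring, with 268, 279.6 and 274 FPKM in Max-KO, against 274, 273 and 308 FPKM in WT. The groups overlapped for Psmb2, and the difference of −0.06 ± 0.06 was not called (limma adjusted p = 0.453). With TPM or quantile scaling Psmb2 was called higher, at 0.16 and 0.21, and with median-ratio scaling lower, at −0.25 (limma adjusted p 0.00523 to 0.0247).

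**Figure D2:**
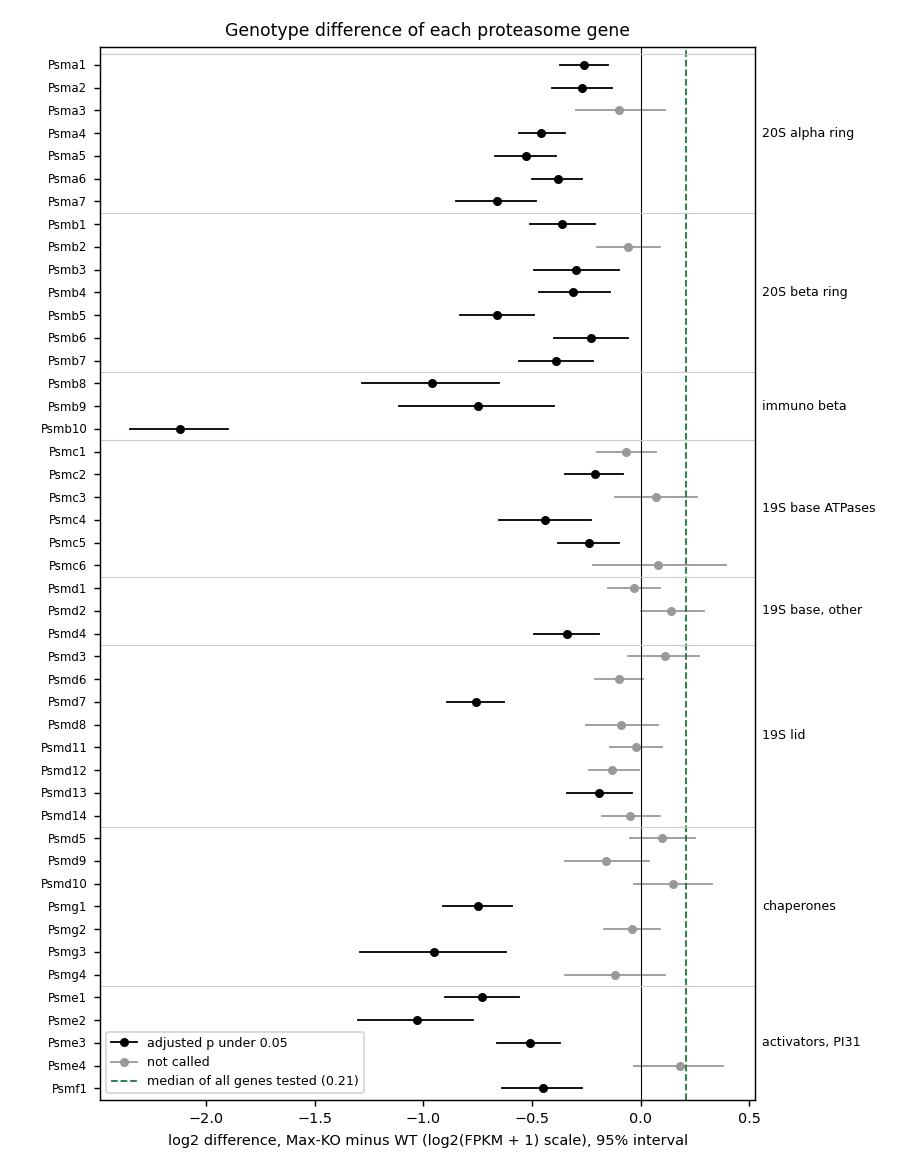
Log2 difference of each tested proteasome gene, Max-KO less WT in log2(FPKM + 1), with its 95% interval, by role; the dashed line marks the median of all genes tested, 0.21, and black marks genes at an adjusted p under 0.05. The 27 black points all lie left of 0, down to −2.12 for Psmb10, and no member right of 0 is black in the deposited scaling.

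In the 19S particle, of 17 base and lid genes 6 fell (Psmc2, Psmc4, Psmc5, Psmd4, Psmd7 and Psmd13), 0 rose and 11 were not called, against 23.2% lower and 43.0% higher of all genes tested, with a median log2 difference of −0.09. These counts were not tested against those of the core. After rescaling to TPM 2 were lower and 7 higher, against 16.1% and 53.8% of all genes tested. Without WT replicate 3, Psmc3, Psmd2 and Psmd3 were called higher, at 0.16, 0.20 and 0.17 (limma adjusted p 0.00499 to 0.0163). Psmc2 lost its call without Max-KO replicate 2 (limma adjusted p = 0.0515), and Psmd13 without any Max-KO library or WT replicate 2 (limma adjusted p 0.0527 to 0.0905).

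In the base, Psmc4, an ATPase, had 126, 125 and 109 FPKM in Max-KO, against 159, 151 and 181 FPKM in WT. It was lower in all Max-KO libraries, with a log2 difference of −0.44 ± 0.09 (limma adjusted p = 0.00349). Psmc6, the ATPase with the highest difference, had 90.85, 92.0 and 93.9 FPKM in Max-KO, against 95.2, 99.05 and 69.7 FPKM in WT. Here WT replicate 3 was far below every other library, and the difference of 0.08 ± 0.13 was not called (limma adjusted p = 0.583). With 1 library left out the Psmc6 difference ran from −0.07 to 0.18, so its sign was not stable. Psmd4, the ubiquitin receptor also known as Rpn10, had 172, 173 and 176 FPKM in Max-KO, against 211, 212 and 239 FPKM in WT. The groups did not overlap, and Psmd4 fell by 0.34 ± 0.06 on the log2 scale (limma adjusted p = 0.00233). The call was lost after rescaling to TPM, at −0.13, and with quantile normalization, at −0.11 (limma adjusted p 0.0528 and 0.0683). Psmd2, the large scaffold subunit Rpn1, went the other way in level, with 196, 192 and 192 FPKM in Max-KO, against 172, 166 and 189 FPKM in WT. All 3 Max-KO values lay above the WT values, but the difference of 0.14 ± 0.06 was not called (limma adjusted p = 0.069). It was called higher with TPM, at 0.36, and quantile normalization, at 0.37 (limma adjusted p 0.000707 and 0.00057).

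In the lid, Psmd7, the partner of the deubiquitinase subunit Psmd14, stood apart from its neighbours in the particle. Its level was 91.0, 87.4 and 93.8 FPKM in Max-KO, against 150.2, 149.8 and 162 FPKM in WT. No WT library came near the Max-KO range, and Psmd7 fell by 0.76 ± 0.06 on the log2 scale (limma adjusted p = 3.74e-05), or 41.1% in mean FPKM. Psmd14 itself was 3.08% lower in mean FPKM, with overlapping groups, and was not called (limma adjusted p = 0.488). It was called lower with median-ratio scaling, at −0.24, and higher with TPM, at 0.17 (limma adjusted p 0.0103 and 0.0353). Psmd3, the lid gene with the highest difference, had 217, 209 and 208 FPKM in Max-KO, against 188, 186 and 216 FPKM in WT. Only WT replicate 3 reached into the Max-KO range, and the difference of 0.11 ± 0.07 was not called (limma adjusted p = 0.206). Psmd3 was called higher with TPM, at 0.32, and quantile normalization, at 0.34 (limma adjusted p 0.00228 and 0.00133).

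All 3 immunoproteasome subunits were lower in Max-KO, with Psmb10 the only one at a substantial level. Psmb10 (ENSMUSG00000031897; GRCm38 chromosome 8, 105935735 to 105938444, minus strand) replaces Psmb7. Psmb8 (ENSMUSG00000024338; chromosome 17, 34197721 to 34201454, plus strand) replaces Psmb5, and Psmb9 (ENSMUSG00000096727; chromosome 17, 34181987 to 34187764, minus strand) replaces Psmb6. Psmb8 and Psmb9 lie on either side of Tap1, which encodes part of the peptide transporter of the class I pathway. The genes of the PA28 activator, Psme1 (ENSMUSG00000022216; chromosome 14, 55578123 to 55581529, plus strand) and Psme2 (ENSMUSG00000079197; chromosome 14, 55587441 to 55591113, minus strand), are also known interferon gamma targets.

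The promoters of these genes are printed because they are the members with the lowest differences that share a known inducer. Each window runs from 250 bases before to 50 after the RefSeq start site (GRCm38.p6), 5′ to 3′ on the gene's strand, with matches to the searched motifs in capitals. The windows are chr8:105938343-105938642 (minus) for Psmb10, chr17:34197945-34198244 (plus) for Psmb8, chr17:34187281-34187580 (minus) for Psmb9, chr14:55578244-55578543 (plus) for Psme1 and chr14:55591052-55591351 (minus) for Psme2. These RefSeq starts lie 52, 474, 434, 371 and 12 bases downstream of the GENCODE gene starts.
Psmb10 promoter: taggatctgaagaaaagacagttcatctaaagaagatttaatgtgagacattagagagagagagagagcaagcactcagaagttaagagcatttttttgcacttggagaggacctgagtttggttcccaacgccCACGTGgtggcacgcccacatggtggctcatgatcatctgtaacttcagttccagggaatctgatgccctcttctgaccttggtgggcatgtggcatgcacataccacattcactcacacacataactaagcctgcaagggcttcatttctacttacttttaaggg
Psmb8 promoter: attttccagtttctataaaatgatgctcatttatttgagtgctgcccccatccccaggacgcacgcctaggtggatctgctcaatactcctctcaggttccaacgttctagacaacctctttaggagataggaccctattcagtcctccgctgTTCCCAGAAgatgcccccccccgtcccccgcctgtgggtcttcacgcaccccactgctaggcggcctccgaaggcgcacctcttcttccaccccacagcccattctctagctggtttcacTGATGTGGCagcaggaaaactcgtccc
Psmb9 promoter: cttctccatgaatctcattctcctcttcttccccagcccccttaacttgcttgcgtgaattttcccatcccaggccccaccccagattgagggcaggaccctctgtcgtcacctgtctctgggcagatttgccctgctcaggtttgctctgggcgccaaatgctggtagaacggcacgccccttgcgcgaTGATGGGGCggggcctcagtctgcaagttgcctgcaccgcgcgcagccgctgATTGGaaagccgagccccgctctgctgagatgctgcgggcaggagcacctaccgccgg
Psme1 promoter: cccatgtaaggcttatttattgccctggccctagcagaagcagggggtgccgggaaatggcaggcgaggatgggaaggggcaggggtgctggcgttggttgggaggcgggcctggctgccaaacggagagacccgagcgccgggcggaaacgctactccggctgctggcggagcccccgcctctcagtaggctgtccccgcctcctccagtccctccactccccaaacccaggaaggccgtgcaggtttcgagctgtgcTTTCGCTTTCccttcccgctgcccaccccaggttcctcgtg
Psme2 promoter: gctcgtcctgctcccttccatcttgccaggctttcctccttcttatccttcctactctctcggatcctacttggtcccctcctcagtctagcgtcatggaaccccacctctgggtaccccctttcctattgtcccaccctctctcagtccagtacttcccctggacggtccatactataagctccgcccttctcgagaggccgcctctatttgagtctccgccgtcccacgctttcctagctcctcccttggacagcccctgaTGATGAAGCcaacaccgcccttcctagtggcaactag

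The Psmb10 window held CACGTG, the E-box word of MYC and MAX dimers, at −116 from the start site. The Psmb8 window held TTCNNNGAA, the word of STAT factors, at −97 and TGANNNNGC, the antioxidant response word of NRF factors, at 23. The Psmb9 window held TGANNNNGC at −60 and the reverse complement of CCAAT, the NF-Y word, at −8. The Psme1 window held the reverse complement of the interferon-stimulated response element (ISRE) core word, at 9, and the Psme2 window held TGANNNNGC at 13. No marked match overlapped another. Both strands were searched for these words and for TTTCCCGC, an E2F word, in 43 windows of 40 members and in 32851 RefSeq windows in all. CACGTG was in 9.3% of member windows (those of Psma4, Psmb10, Psmd9 and Psme3) and in 7.2% of all windows. TGANNNNGC was in 58.1% of member windows and 41.3% of all windows, CCAAT in 32.6% and 37.4%, and TTTCCCGC in 4.7% and 1.1%. The ISRE core word was in 11.6% of member windows and 3.4% of all windows, and TTCNNNGAA in 7.0% and 8.3%. These are matches of letters, not binding sites, and no test was made of them.

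Psmb10 had 12.65, 15.5 and 12.3 FPKM in Max-KO 1 to 3, against 58.2, 62.4 and 64.8 FPKM in WT 1 to 3. The highest Max-KO library was far below the lowest WT library. The log2 difference was −2.12 ± 0.10 (SE; 95% interval −2.35 to −1.90; limma adjusted p = 5.88e-06), the lowest of the 46 members tested, and mean FPKM was 78.2% lower. The call held under every alternative run, and with each library left out.

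Psmb8 had 0.14, 0.16 and 0.06 FPKM in Max-KO, against 1.15, 1.00 and 1.42 FPKM in WT. At the estimated depth these stand for about 4.7, 4.6 and 2.3 fragments in Max-KO libraries and 39.6, 30.4 and 44.8 fragments in WT libraries. The groups were wide apart, but the Max-KO level rests on a few fragments, so no fold is given beside the log2 difference of −0.96 ± 0.13 (limma adjusted p = 0.000622). Psmb9 had 0.77, 0.35 and 0.44 FPKM in Max-KO, against 1.48, 1.36 and 1.82 FPKM in WT. These correspond to about 20.7, 7.9 and 13.5 fragments in Max-KO libraries and 40.7, 33.0 and 45.9 fragments in WT libraries, with no overlap. The log2 difference of Psmb9 was −0.75 ± 0.15 (limma adjusted p = 0.00365). Both genes passed the filter only through their WT level, so the filter set their direction, and the + 1 on the log scale understates their differences. Whether the kit marked strand is not stated in the labels, and 5.8% of the Psmb9 exon bases overlap Tap1 on the opposite strand, so reads there cannot be assigned to either gene. Tap1 itself had 0.75, 0.46 and 0.48 FPKM in Max-KO, against 0.96, 1.32 and 0.98 FPKM in WT. The groups did not overlap, and the Tap1 difference of −0.42 ± 0.14 had a limma adjusted p of 0.0327, but Tap1 too passed the filter only through its WT level. Its call was lost after rescaling to TPM, with the replicate block, and without Max-KO replicate 2 or 3 or WT replicate 1 or 3 (limma adjusted p 0.0596 to 0.0811).

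Leukocytes carry immunoproteasomes, so leukocyte markers were read beside these genes. The summed level of 8 markers was 18.9 to 20.2 FPKM in Max-KO libraries and 13.6 to 15.4 FPKM in WT libraries. Of the 3 tested, Cd3e and Cd74 were higher in Max-KO and Coro1a was lower, against 43.0% higher and 23.2% lower of all genes tested. The pan-leukocyte gene Ptprc was listed at 0.17 to 0.35 FPKM in Max-KO libraries and at 0 to 0.02 FPKM in WT libraries, and Lyz2 at 0 in all Max-KO libraries and at no more than 0.04 FPKM in WT libraries. Coro1a was listed at 2.58 to 3.58 FPKM in Max-KO libraries and at 9.02 to 11.8 FPKM in WT libraries. The part of such cells in the immunoproteasome levels was not tested.

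**Figure D3:**
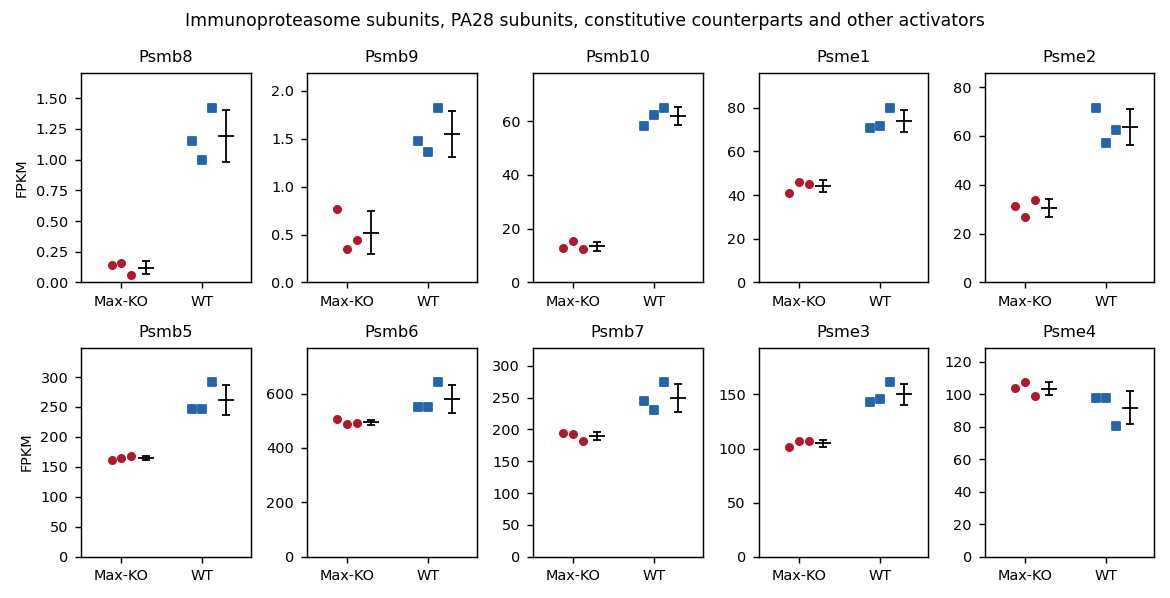
FPKM in each library (points, 3 Max-KO to the left of 3 WT, each axis from 0; line and whiskers show the mean and SD) for the immunoproteasome subunits, the constitutive subunits they replace, and the activators. Psmb10 sits at 12.3 to 15.5 FPKM in Max-KO and 58.2 to 64.8 FPKM in WT, and Psme4 is the gene shown whose Max-KO values all lie above its WT values.

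The activators followed the same direction except for Psme4. Psme1, the alpha subunit of PA28, had 41.1, 46.2 and 45.2 FPKM in Max-KO, against 70.45, 71.5 and 79.8 FPKM in WT. The groups were well apart, with a log2 difference of −0.73 ± 0.07 (limma adjusted p = 0.000137). Psme2, the beta subunit of the same ring, had 31.45, 26.6 and 33.65 FPKM in Max-KO, against 71.4, 57.0 and 62.2 FPKM in WT. All Max-KO libraries were lower, with a log2 difference of −1.03 ± 0.11 (limma adjusted p = 0.000206), or 51.9% in mean FPKM. Psme2b, a near copy of Psme2 elsewhere in the genome, was listed at no more than 0.24 FPKM in any library.

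Psme3 encodes the nuclear PA28 gamma, which forms rings of its own. It had 101, 107 and 107 FPKM in Max-KO, against 143, 146 and 161 FPKM in WT. The groups did not overlap, and Psme3 fell by 0.51 ± 0.06 on the log2 scale (limma adjusted p = 0.000322). Psmf1, which encodes the inhibitor PI31, had 14.3, 15.3 and 13.2 FPKM in Max-KO, against 18.7, 20.6 and 20.4 FPKM in WT. It was lower in every Max-KO library, by 28.3% in mean FPKM (log2 difference −0.45 ± 0.08, limma adjusted p = 0.00202). Psme4, the PA200 gene known for a role in spermatogenesis, had 104, 107 and 99.1 FPKM in Max-KO, against 97.3, 97.7 and 80.3 FPKM in WT. The Max-KO libraries were all above the WT libraries, but the difference of 0.18 ± 0.09 was not called (limma adjusted p = 0.106). Without WT replicate 3 it was 0.08 (limma adjusted p = 0.166). Psme4 was called higher after rescaling to TPM, at 0.39 (limma adjusted p = 0.00946), and with quantile normalization, at 0.27 (limma adjusted p = 0.03).

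Among the 7 assembly chaperones 2 fell, Psmg1 and Psmg3, and 0 rose, against 23.2% and 43.0% of all genes tested. After rescaling to TPM 2 of the chaperones were lower and 3 higher, against 16.1% and 53.8% of all genes tested. Psmg1 and Psmg2 form a heterodimer that guides alpha ring assembly, and Psmg3 and Psmg4 form another. Psmg1 had 40.9, 42.25 and 37.6 FPKM in Max-KO, against 64.2, 69.0 and 71.4 FPKM in WT. The groups were far apart, with a log2 difference of −0.75 ± 0.07 (limma adjusted p = 9.03e-05). Its partner Psmg2 had 34.9, 34.0 and 32.5 FPKM in Max-KO, against 34.4, 34.5 and 35.3 FPKM in WT. Those values overlapped, and the difference of −0.04 ± 0.05 was not called (limma adjusted p = 0.554). Psmg2 was called lower with median-ratio scaling, at −0.23, and higher with TPM, at 0.17 (limma adjusted p 0.0113 and 0.0309).

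Within the other pair, Psmg3 had 11.8, 11.75 and 14.5 FPKM in Max-KO, against 24.1, 22.0 and 31.1 FPKM in WT. The Max-KO values were all lower, with a log2 difference of −0.95 ± 0.14 (limma adjusted p = 0.000881), or 50.6% in mean FPKM. Its partner Psmg4 had 46.6, 36.5 and 45.35 FPKM in Max-KO, against 44.4, 47.7 and 46.8 FPKM in WT. Max-KO replicate 2 was the lowest library, the groups overlapped, and the difference of −0.12 ± 0.10 was not called (limma adjusted p = 0.314). The base chaperones Psmd5, Psmd9 and Psmd10 were not called. Psmd10, also known as gankyrin, had 20.5, 19.1 and 19.1 FPKM in Max-KO, against 16.9, 16.6 and 19.1 FPKM in WT, with a difference of 0.15 ± 0.08 (limma adjusted p = 0.122). Without WT replicate 3, which alone overlapped the Max-KO values, Psmd10 was called higher at 0.21 (limma adjusted p = 0.0298), and so it was with TPM at 0.36 (limma adjusted p = 0.00402). Of the Psmd9 exon bases 25.5% overlap a long noncoding RNA, Gm26745, on the opposite strand, which averaged 4.12 FPKM in Max-KO and 0.877 FPKM in WT.

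Ratios of deposited FPKM inside a library do not change when the library is multiplied by a constant, as in median-ratio or TPM scaling, though quantile normalization can change them. They are given as values without a test. Psmb10 stood at 6.53%, 8.06% and 6.74% of Psmb7 in Max-KO libraries, against 23.8%, 27.0% and 23.7% in WT libraries, so the interferon-inducible subunit was less abundant relative to the subunit it replaces. Psmb9 averaged 0.105% ± 0.0424 of Psmb6 in Max-KO and 0.267% ± 0.0188 in WT, and Psmb8 averaged 0.0732% ± 0.0328 of Psmb5 in Max-KO and 0.453% ± 0.0424 in WT (SD, n = 3 each). Among the constitutive sites, Psmb5 over Psmb6 averaged 0.333 ± 0.011 in Max-KO and 0.450 ± 0.00357 in WT. Psmb7 over Psmb6 averaged 0.383 ± 0.0111 in Max-KO and 0.430 ± 0.0137 in WT. None of these ratios overlapped between groups.

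Ratios of summed transcript levels between sub-complexes also differed, except for lid over base. They are ratios of RNA, and neither protein nor assembled complexes were measured. Summed 20S core over summed 19S particle FPKM was 1.13, 1.16 and 1.17 in Max-KO libraries, against 1.33, 1.32 and 1.37 in WT libraries, without overlap. Alpha ring over beta ring averaged 0.551 ± 0.00617 in Max-KO and 0.602 ± 0.029 in WT, also without overlap. Lid over base was nearly level, at 0.695 ± 0.0056 in Max-KO and 0.700 ± 0.00746 in WT, and overlapped. Psme1 and Psme2 together averaged 18.6% ± 0.829 of the mean core gene in Max-KO and 27.0% ± 1.56 in WT. Psme3 over Psme1 averaged 2.38 ± 0.0726 in Max-KO and 2.03 ± 0.0123 in WT, and Psme4 over Psme1 averaged 2.35 ± 0.168 in Max-KO and 1.25 ± 0.212 in WT. All members together took 0.884% ± 0.0103 of summed FPKM in Max-KO and 0.918% ± 0.0342 in WT, with overlapping groups.

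Each of the 31 core and particle genes was also set against the median of these genes in its own library. That median is made of the members themselves and moves with them, and Psmd2 stood at it in every WT library. The counts have no share of all genes to set beside them and were not tested. By that measure 17 were lower in Max-KO without overlap, 12 of the 14 core genes and 5 of the 17 particle genes. Higher without overlap were 5, which were Psmb2, Psmc3, Psmd2, Psmd3 and Psmd11, and 9 overlapped. Psmd7 had the lowest difference, at −0.65, followed by Psma7 and Psmb5 at −0.55 each, and Psmd2 had the highest, at 0.26.

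**Figure D4:**
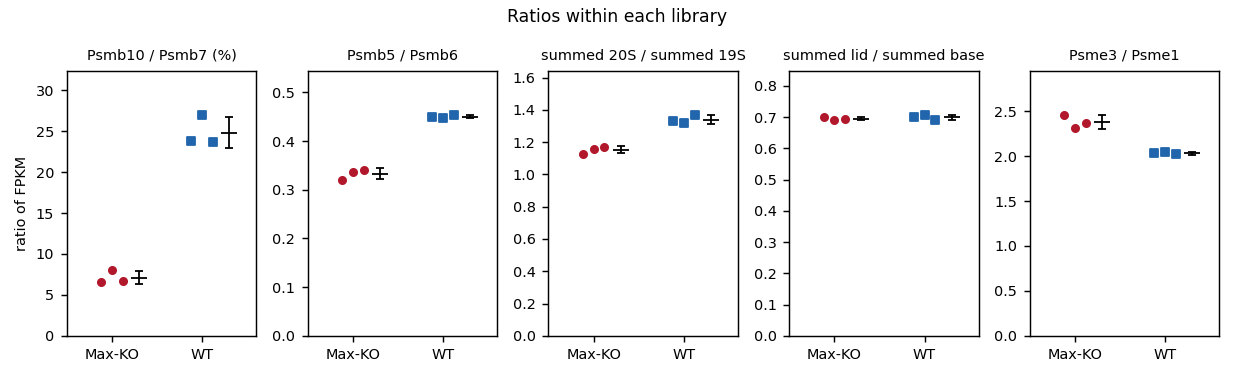
Ratios of FPKM within each library (points, 3 Max-KO to the left of 3 WT, axes from 0; line and whiskers show the mean and SD), the first panel in percent. Psmb10 over Psmb7, Psmb5 over Psmb6, Psme3 over Psme1 and the 20S core over the 19S particle (1.13 to 1.17 in Max-KO, 1.32 to 1.37 in WT) do not overlap between groups, and lid over base does.

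Summed FPKM differed between groups, and the counts depended on the scaling. With median-ratio scaling the median of all genes moved to 0.04, and 39 members were called lower and 0 higher, against 31.6% and 33.4% of all genes. With rescaling to TPM that median was 0.41, and 18 members were called lower and 12 higher, against 16.1% and 53.8%. With quantile normalization it was −0.02, and 21 members were called lower and 7 higher, against 33.0% and 28.8%. With median-ratio scaling the 20S core had 14 of 14 genes lower. The 19S particle had 13 lower and 0 higher with median-ratio scaling, 2 lower and 7 higher with TPM, and 3 lower and 4 higher with quantile normalization, so no direction is given for it as a group. The 18 genes lower under every setting run were Psma4, Psma5, Psma6, Psma7, Psmb1, Psmb5, Psmb7, Psmb8, Psmb9, Psmb10, Psmc4, Psmd7, Psmg1, Psmg3, Psme1, Psme2, Psme3 and Psmf1. Among them Psmb8 and Psmb9 passed the filter only through their WT level, so their direction was set by it.

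**Figure D5:**
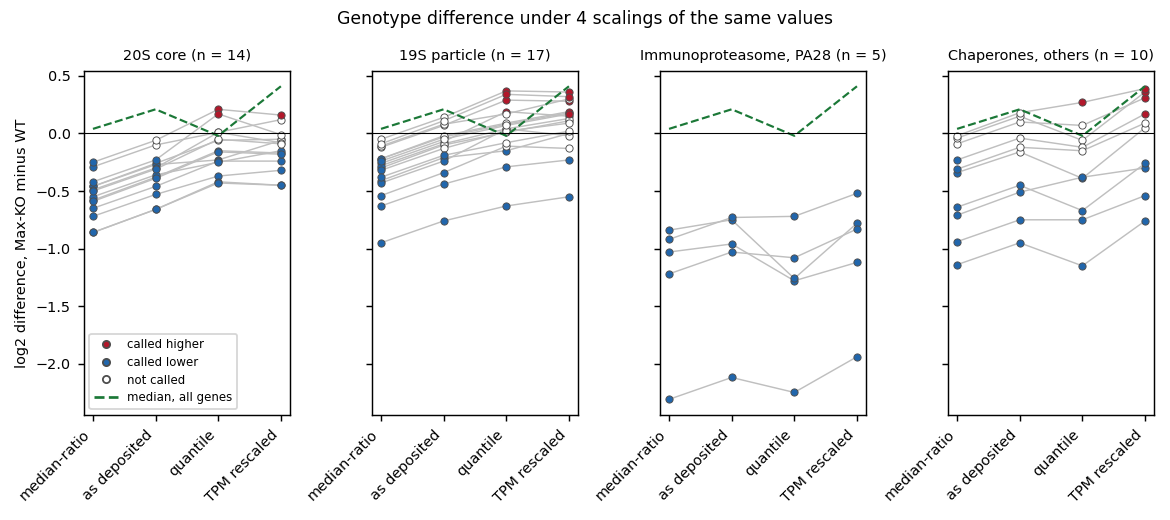
Log2 difference, Max-KO minus WT, of each tested proteasome gene under 4 scalings of the same values, in 4 panels by role; colours mark genes called higher, called lower or not called, and the dashed line is the median of all genes tested. The immunoproteasome and PA28 genes stay below 0 under all 4, while calls in the 19S particle run from 13 lower with median-ratio scaling to 7 higher with TPM. Psmb8 and Psmb9 passed the filter only through their WT level.

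Other genes around the proteasome did not share a single direction, and the shares of all genes tested to set beside each list were 43.0% higher and 23.2% lower. Of 11 tested proteins that bind or build the proteasome, 3 were higher in Max-KO and 5 lower. Fbxo7, which binds the inhibitor PI31, averaged 19.5 FPKM in Max-KO and 11.6 FPKM in WT (log2 difference 0.69 ± 0.10, limma adjusted p = 0.000746), and Ipo9, an importin that carries proteasomes into the nucleus, rose by 0.42 ± 0.07 (limma adjusted p = 0.00138). The deubiquitinase Uchl5 averaged 27.8 FPKM in Max-KO and 38.9 FPKM in WT, a difference of −0.46 ± 0.09 (limma adjusted p = 0.00382), and Txnl1 differed by −0.30 ± 0.06 (limma adjusted p = 0.0027), but neither was called after rescaling to TPM.

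Of 10 tested regulators of proteasome genes, 1 was higher and 4 were lower. Nfe2l1, which encodes NRF1, the transcription factor that raises proteasome genes when degradation is blocked, had 125, 124 and 137 FPKM in Max-KO, against 128, 127 and 127 FPKM in WT. The groups overlapped, with a log2 difference of 0.01 (95% interval −0.12 to 0.15, limma adjusted p = 0.841). Nfe2l1 was called lower with median-ratio scaling, at −0.18, and higher after rescaling to TPM, at 0.23 (limma adjusted p 0.0318 and 0.00669). Mafk, a small MAF partner of NRF factors, fell by 0.67 ± 0.13 on the log2 scale (limma adjusted p = 0.00299). Maff, another small MAF gene, and Ddi2, the protease that activates NRF1, differed by −0.25 and −0.26 (limma adjusted p 0.0387 and 0.0089), though neither was called after rescaling to TPM, and Maff not without any 1 library other than Max-KO replicate 3 (limma adjusted p 0.066 to 0.116). Syvn1, a ubiquitin ligase of the endoplasmic reticulum, was higher, at 0.34 ± 0.09 (limma adjusted p = 0.0117), though not with median-ratio or quantile scaling.

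Of 16 genes of ubiquitin supply and delivery, 5 were higher and 7 lower. The ubiquitin and ribosomal protein fusion gene Rps27a averaged 1523 FPKM in Max-KO and 2618 FPKM in WT, a difference of −0.78 ± 0.05 (limma adjusted p = 3.06e-05). Ufd1, a cofactor of the segregase VCP, rose by 0.61 ± 0.07 (limma adjusted p = 0.000235). Uba6, an activating enzyme of ubiquitin, was higher at 0.59 ± 0.16 (limma adjusted p = 0.0134), except with quantile normalization.

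In the class I pathway served by the immunoproteasome, 4 of 11 tested genes were higher and 3 lower. B2m, the shared light chain of class I molecules, had 41.3, 46.6 and 50.75 FPKM in Max-KO, against 27.4, 24.7 and 26.6 FPKM in WT. It was higher in every Max-KO library (log2 difference 0.79 ± 0.09, limma adjusted p = 0.000214), where the immunoproteasome genes were lower. The heavy chain gene H2-D1 differed by 0.50 ± 0.12 and the peptide-loading factor Tapbp by 0.56 ± 0.16 (limma adjusted p 0.00718 and 0.0187), and H2-K1 by −0.47 ± 0.17 (limma adjusted p = 0.0423). H2-D1 was not called with quantile normalization, Tapbp with neither median-ratio nor quantile scaling, and H2-K1 not after rescaling to TPM. The call of H2-K1 was also lost without any 1 library other than Max-KO replicate 3 (limma adjusted p 0.0594 to 0.12) and that of Tapbp without Max-KO replicate 1 or 2 or WT replicate 1 or 2 (limma adjusted p 0.0567 to 0.064), and both were lost with the replicate block (limma adjusted p 0.074 and 0.0557). H2-D1 and H2-K1 belong to a family of similar genes, so reads may be shared among its members.

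Of 11 tested interferon signal transducers, 7 were higher and 2 lower, against 43.0% and 23.2% of all genes tested. With quantile normalization 4 were higher and 4 lower, against 28.8% and 33.0%. Jak2, a kinase of the interferon gamma receptor, averaged 6.88 FPKM in Max-KO and 1.19 FPKM in WT (log2 difference 1.86 ± 0.14, limma adjusted p = 4.32e-05), and Jak1 differed by 0.83 ± 0.07 (limma adjusted p = 5.08e-05). Irf9 and the type I receptor gene Ifnar1 were also higher, at 0.77 ± 0.12 and 0.66 ± 0.06 (limma adjusted p 0.00132 and 0.000101). Irf1, the transcription factor that acts on immunoproteasome and class I genes after interferon gamma, had 27.3, 25.85 and 27.3 FPKM in Max-KO, against 39.6, 40.7 and 43.5 FPKM in WT. It was lower in every Max-KO library, by a log2 difference of −0.60 ± 0.06 (limma adjusted p = 0.000151). The part of Irf1 or of the other transducers in the levels of Psmb8, Psmb9 and Psmb10 was not tested.

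Markers of other cells were read beside these lists. Summed fibroblast feeder markers were 8.11 to 10.3 FPKM in Max-KO libraries and 8.11 to 8.38 FPKM in WT libraries. Summed primitive endoderm markers were 45.3 to 61.3 FPKM in Max-KO libraries and 27.1 to 31.2 FPKM in WT libraries. Within that sum Lama1 alone averaged 46.0 FPKM in Max-KO and 26.9 FPKM in WT. Of these markers 5 of 5 tested were higher in Max-KO, against 43.0% of all genes tested. With quantile normalization 2 of 5 were higher, against 28.8%. Among the 5, Gata4, Sox17 and Pdgfra passed the filter only through Max-KO, so the filter set their direction. The part of such other cells in the proteasome differences was not tested.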

How the data were processed

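Per the labels, RNA was extracted with Trizol and libraries were made with an Illumina TruSeq RNA kit. The deposited values are FPKM per gene and library. The submitters' processing notes name build GRCm38.p6 and the tools DESeq 1.26.0, RSEM, HISAT2 2.1.0 and FastQC, without a role or order. Symbols and coordinates came from GENCODE M21, promoter windows from RefSeq (GRCm38.p6).

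The filter kept genes whose mean reached 1 FPKM in either group and dropped 1153 assembled loci. On log2(FPKM + 1), which understates changes of low genes, limma 3.58.1 (R 4.3.3; trend and robust, 2-sided) was run with genotype as the only term, with Benjamini-Hochberg adjustment over 14661 genes. The test planned for counts was not used. Alternatives were median-ratio scaling, TPM rescaling, quantile normalization, a pseudocount of 0.1, no filter, limma without trend and robust, a replicate block, and leaving out each library. The fit was tested on simulated data. Summaries used pandas 2.3.3, numpy 2.4.6 and Python 3.11.15.

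Members, roles and lists were chosen with earlier results of these data known. Full statistics were given by rule for the immunoproteasome subunits and their counterparts, the Psme and Psmg genes, Psmf1, and the lowest and highest log2 difference of each other role group; from each list up to 4 called genes with the largest absolute difference and 1 in the opposite direction; and Tap1. A further gene that this rule names is not reported here. Psmd14, Psmd9 with Gm26745, Nfe2l1 and the members given by percent alone were added after their values were seen. Depth was estimated from the steps between low FPKM values of single-transcript genes, of which 86.3% to 90.0% lay within 0.15 of a whole number; the fitted step is not independent of that share. Fragments derived from it are estimates and cover counting error only. Libraries correlated across genes at 0.978 to 0.985 within a group and 0.890 to 0.909 between groups.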

Additional observations from a re-analysis of the deposited data

How the results depend on the processing

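Of the named genes' values under an alternative, 547 stayed on the same side of the threshold, 44 lost a call and 15 gained one. A call against the deposited sign was made for 4. The 547 include values without a call that changed sign, such as Psme4, at 0.18 as deposited and −0.02 with median-ratio scaling. The number of members lower was 24 to 28 with each library left out, against 27, and the number higher 0 to 4; the median of members was −0.27 to −0.20. For the 20S core 10 to 13 were lower and 0 higher, and for the 19S particle 4 to 6 lower and 0 to 3 higher. Members higher were 12 with TPM rescaling, 7 with quantile normalization and 4 without WT replicate 3, and the median of members was −0.44 with median-ratio scaling, −0.04 with TPM, −0.12 with quantile normalization and −0.20 without WT replicate 3. In the 20S core TPM gave 1 higher and 7 lower and quantile normalization 2 higher; in the 19S particle TPM gave 7 higher and 2 lower, quantile normalization 4 higher and 3 lower, and median-ratio scaling 13 lower. Calls against the deposited sign were made for Psmb6 (0.17, quantile), Psmg2 (0.17, TPM) and Psmb2 (0.16 with TPM and 0.21 with quantile). Psmd13 also lost its call without the filter and without trend and robust, and Psmb6 without trend and robust.

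Proteasome-bound proteins had 5 higher and 0 lower with TPM, 3 lower with quantile normalization and 3 to 4 lower with a library left out. Regulators had 0 higher with median-ratio or quantile scaling, 3 higher and 1 lower with TPM. Ubiquitin genes had 2 higher and 11 lower with median-ratio scaling and 4 lower with TPM. Class I genes had 5 lower with median-ratio scaling, 1 with TPM and 1 to 2 with a library left out. Interferon transducers had 4 higher and 4 lower with quantile normalization, 1 lower with TPM, and 1 to 2 lower with a library left out. For these lists the causes were not tested.

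Same-numbered libraries correlated at −0.001, 0.016 and 0.086 in their deviations from the group means, and differently numbered libraries at −0.082 to 0.065. These values do not show a pairing by number, but with 3 libraries a group they cannot exclude one. With the replicate block 26 members were lower and 0 higher, Psmd13 being lost, and of all genes 6203 were higher and 3282 lower. Depth limits Psmb8 and Psmb9, and 3 libraries a group limit small differences in the 19S particle.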

Other observations

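Psma8, the testis-type alpha subunit left out of the set, had 18.0, 16.2 and 17.3 FPKM in Max-KO, against 10.3, 11.2 and 11.4 FPKM in WT. It was higher in every Max-KO library (log2 difference 0.60 ± 0.08, limma adjusted p = 0.000422) and under all 4 scalings, while its close paralog Psma7 fell; reads may be shared between them. Processed pseudogenes of Psmb5, Psmb6 and Psmb7 were listed at no more than 0.26 FPKM in any library. Among class I genes, Erap1, a peptide-trimming protease, was listed at 0.93, 1.46 and 0.60 FPKM in Max-KO, against 2.39, 19.4 and 4.08 FPKM in WT. WT replicate 2 alone was far above the others, though the groups did not overlap. Erap1 was not called (limma adjusted p = 0.0565), but it was called lower with median-ratio and quantile scaling (limma adjusted p 0.0494 and 0.0222). It passed the filter only through its WT level, so the filter set its direction.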
